A study of Rattus norvegicus with 27 samples.

Results

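The genes described here are the Wnt ligands, their receptors, and the proteins that help, block or relay their signal, in cultured rat Schwann cells. They were chosen by name from the cell mRNA table: the *Wnt*, *Fzd*, *Sfrp*, *Dkk*, *Rspo* and *Lgr* families with *Lrp5*, *Lrp6*, *Axin2*, *Lef1*, *Tcf7l2*, *Ctnnb1*, *Wif1* and *Rnf43*. Of 17315 genes in the table, 48 met that rule: 18 ligands, 11 receptors, 6 genes of the R-spondin branch, 9 secreted antagonists and 4 cytoplasmic or nuclear genes. Schwann cells are the glia that wrap peripheral axons, and these were commercial primary rat cells. The undifferentiated stage had no dbcAMP (dibutyryl cyclic AMP, which enters cells and acts as cyclic AMP does). For the differentiated stage dbcAMP was given at 1 mM over 72 h in a low-serum medium. For the dedifferentiated stage cells had the same treatment and then a further 72 h in a medium without dbcAMP but with more serum, neuregulin and forskolin, an agent that itself raises cyclic AMP. Medium and stage thus changed together and their effects cannot be told apart. The labels give the undifferentiated medium only as lacking dbcAMP. Each stage had 3 libraries, whose titles call them biological replicates without saying whether cultures or animals differed. The p-values thus measure the spread between these libraries. Replicates 1 and 2 of every stage were in the same sequencing project, and replicate 3 of every stage was in another.

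Wnt proteins are secreted, lipid-bearing signals that bind Frizzled receptors together with the co-receptors LRP5 or LRP6. In the canonical branch this spares β-catenin, encoded by *Ctnnb1*, from a destruction complex built on Axin and APC, and β-catenin then acts with TCF and LEF proteins at DNA. Other Wnts, such as Wnt5a and Wnt11, are best known for signalling to the cytoskeleton and cell polarity without β-catenin. R-spondins, bound by LGR receptors, protect Frizzled from removal by the ligase RNF43, while SFRP, WIF1 and most DKK proteins block ligand or co-receptor. In peripheral nerve the pathway has been studied in Schwann cell development and myelin gene expression.

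The proximal promoters of 4 members are shown as examples of the targets, effectors and dbcAMP-responsive ligands of the results below. They are the 250 bases before the annotated start from RefSeq, build GRCr8, 5′ to 3′. Capitals mark the TCF/LEF core CTTTGA or its reverse complement TCAAAG, and the half-site TGACG or CGTCA of the cyclic AMP response element (CRE).
*Axin2*, chr10:94398535-94398784, plus strand: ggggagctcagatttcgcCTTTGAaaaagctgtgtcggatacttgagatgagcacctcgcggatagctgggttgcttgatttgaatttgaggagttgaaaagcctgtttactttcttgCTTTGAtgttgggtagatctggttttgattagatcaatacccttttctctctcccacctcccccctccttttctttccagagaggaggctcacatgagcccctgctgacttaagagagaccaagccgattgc
*Ctnnb1*, chr8:129533887-129534136, plus strand: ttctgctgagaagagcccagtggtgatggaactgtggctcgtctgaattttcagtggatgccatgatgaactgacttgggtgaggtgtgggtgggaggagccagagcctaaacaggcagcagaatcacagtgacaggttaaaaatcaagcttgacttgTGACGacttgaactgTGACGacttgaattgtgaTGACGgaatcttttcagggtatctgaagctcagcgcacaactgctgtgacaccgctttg
*Tcf7l2*, chr1:264791085-264791334, plus strand: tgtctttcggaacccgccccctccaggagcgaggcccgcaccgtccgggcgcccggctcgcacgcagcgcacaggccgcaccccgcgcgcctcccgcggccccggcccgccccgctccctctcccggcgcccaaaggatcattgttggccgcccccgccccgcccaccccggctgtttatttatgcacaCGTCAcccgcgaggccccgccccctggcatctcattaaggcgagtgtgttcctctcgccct
*Wnt6*, chr9:83778302-83778551, plus strand: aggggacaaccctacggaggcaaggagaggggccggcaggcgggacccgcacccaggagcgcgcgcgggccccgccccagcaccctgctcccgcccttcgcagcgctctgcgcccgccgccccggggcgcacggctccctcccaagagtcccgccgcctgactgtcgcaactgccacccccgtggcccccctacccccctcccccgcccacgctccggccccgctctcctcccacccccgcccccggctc

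*Axin2*, the classic feedback target of β-catenin, held the TCF/LEF core at 232 and 132 bases before its start. *Ctnnb1* held 3 CRE half-sites, at 92, 77 and 59 bases before the start, and *Tcf7l2* held 1 at 61 bases. *Wnt6* held neither motif, and nor did *Lef1*, *Wnt3*, *Wnt5a* and *Wnt11*, whose promoters are not shown. A promoter entry was matched for 33 of the 48 members. The TCF/LEF core was in 3 of these (*Axin2*, *Dkk1* and *Wnt8a*), or 9.09%, against 13.9% of all 33469 promoters of the same length. The CRE half-site was in 4 (*Ctnnb1*, *Tcf7l2*, *Wif1* and *Wnt2b*), or 12.1%, against 18.2% of all. The full CRE TGACGTCA, which contains both half-sites, was in 0 of 33 and in 1.59% of all promoters. Both strands were read. A match describes letters in this window, not a site in use.

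Libraries held 10058735 to 16212278 estimated counts, so that 3 counts correspond to 0.185 to 0.298 CPM, the count scaled to a common library total and the unit of every level below. Replicate 1 of each stage lay further from the other libraries of its stage (chi-square per gene of 21.6 to 27.5) than replicates 2 and 3 lay from each other (5.37 to 14.5), and no pair was close to the value near 1 that sampling alone gives. All 7 Schwann cell markers in the table, *Sox10* and *S100b* among them, averaged at least 1 CPM at every stage, and their sum ran from 7531 to 8551, 5756 to 6274 and 10290 to 10619 CPM in undifferentiated, differentiated and dedifferentiated cells. Marker lists of other cells also moved with stage. Of 6 fibroblast markers *Lum* was at 0, *Dcn* and *Pdgfra* were at most 0.884 CPM and *Thy1* at most 1.92 CPM in any library, while *Col1a1* and *Col1a2* carried a sum of 24363 to 29064, 11924 to 15586 and 15935 to 19352 CPM in the same order. The 5 macrophage markers summed to 0.403 to 2.29, 3.95 to 5.17 and 2.11 to 3.65 CPM, with *Aif1* at 0, *Cd68* 4.37-fold higher under dbcAMP (edgeR adjusted p = 0.00387) and *Csf1r* at 0, 31 and 25 counts over the libraries of the 3 stages. The 5 endothelial markers summed to 1.21 to 3.36, 5.67 to 8.26 and 4.18 to 7.97 CPM, with *Cdh5* at 0 and *Tek* 5.18-fold higher under dbcAMP (edgeR adjusted p = 0.000851). The 5 mural markers, carried by *Pdgfrb*, summed to 124 to 154, 542 to 809.5 and 323 to 346 CPM, with *Rgs5* at 0 and *Acta2* 16.5-fold lower under dbcAMP and 37-fold higher on withdrawal (edgeR adjusted p = 0.000645 and 0.000148). The 5 neuronal markers, carried by *Nefm*, summed to 119 to 284, 496 to 641 and 170.4 to 208 CPM, with *Rbfox3* at most 0.0772 CPM. The part of these levels in the results below was not tested.

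Of the 48 members, 27 passed edgeR's count filter and were tested, and 21 did not pass it. Under dbcAMP 18 of the 27 were called by edgeR's quasi-likelihood test at a Benjamini-Hochberg adjusted p under 0.05, 10 higher and 8 lower. Over all 10372 genes tested 59.6% were called, 31.7% higher and 27.9% lower, so the members' count was near the background, and what follows rests on which genes moved. Their median log2 change was 0.01, against 0.05 for all genes tested. After withdrawal 18 of 27 were called against differentiated cells, 8 higher and 10 lower, where 46.4% of all genes were called, 23.2% higher and 23.2% lower. The medians were 0 and -0.01. Between dedifferentiated and undifferentiated cells 8 were called, 4 higher and 4 lower, where 29.4% of all genes were called, 16.1% higher and 13.3% lower, and the medians were -0.10 and 0.02. Scaled by library size alone, that comparison had 4 members higher and 2 lower. The dbcAMP count fell to 11, with 5 higher and 6 lower, when at least 10 counts were required in every library. That filter also left fewer members to test, and calls over all genes went from 6179 to 5464. The count of 8 for dedifferentiated against undifferentiated cells fell to 4 without undifferentiated replicate 2 and to 5 without undifferentiated replicate 3. It fell to 4 without dedifferentiated replicate 2 or 3. Calls over all genes fell too, from 3045 to 2412, 2477, 2340 and 2246 in the same order. The 3 comparisons share libraries and are not independent, and in such bulk RNA fewer cells making a transcript and less of it per cell cannot be told apart.

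**Figure D1:**
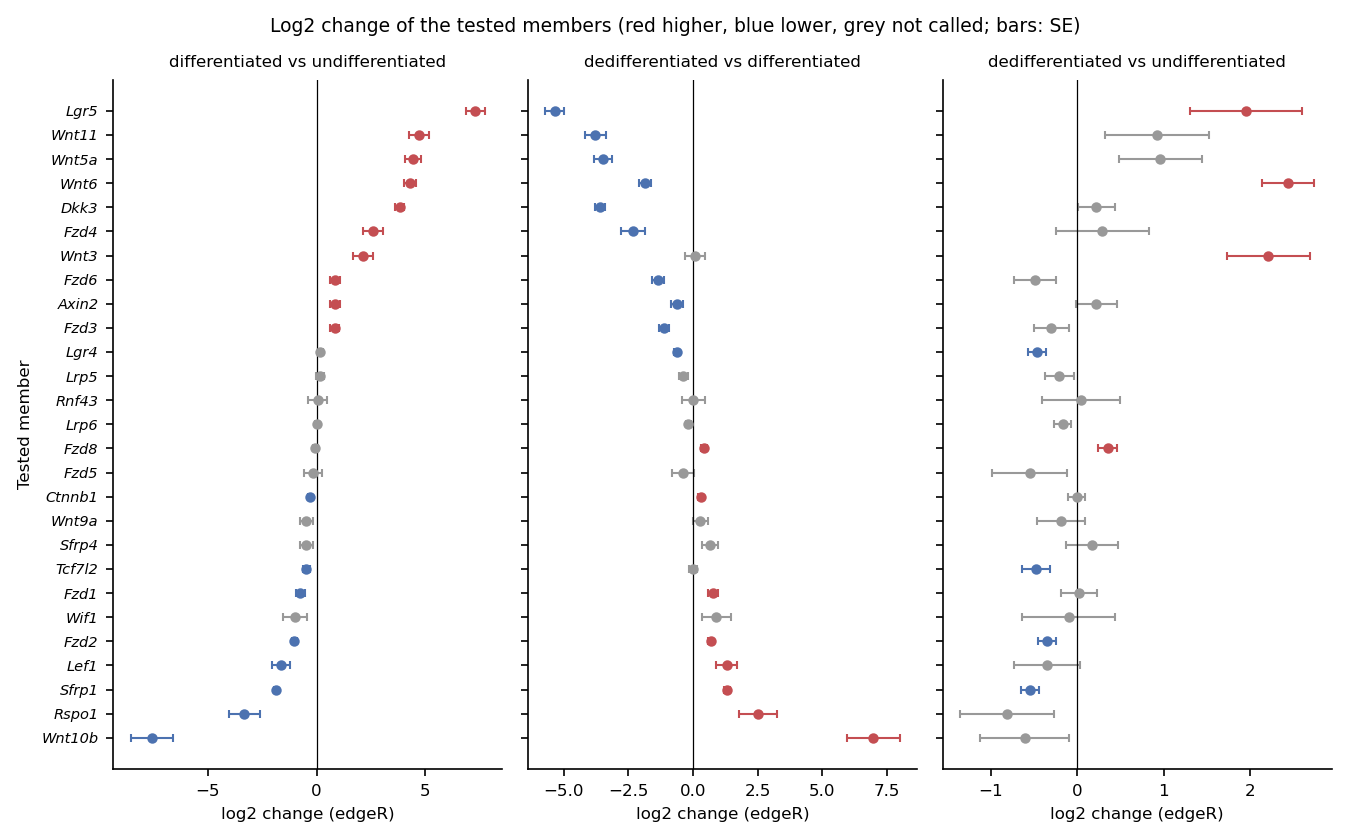
Log2 change of each of the 27 tested members in the 3 comparisons, with bars of 1 approximate standard error. Red marks called higher, blue called lower and grey not called. The x axes differ in range. *Lgr5* stands highest and *Wnt10b* lowest under dbcAMP, and most points swing to the other side of 0 after withdrawal. The *Wnt10b* values in the first 2 panels rest on 1 count in differentiated cells.

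Of the 18 ligands, 6 were tested. Under dbcAMP *Wnt3*, *Wnt5a*, *Wnt6* and *Wnt11* rose, *Wnt10b* fell, and *Wnt9a* did not pass the test. After withdrawal *Wnt5a* and *Wnt11* came back to levels not called different from undifferentiated cells, *Wnt6* came back in part, and *Wnt3* did not come back.

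*Wnt5a*, the leading ligand of β-catenin-independent signalling, measured 0.161, 0.577 and 0.262 CPM in undifferentiated replicates 1, 2 and 3, then 8.33, 7.33 and 6.54 in differentiated and 0.678, 0.497 and 0.752 in dedifferentiated cells. Every differentiated library was above all others. The rise was 21.7-fold (log2 change 4.44, SE 0.381; edgeR adjusted p = 3.06e-06), and the fall after withdrawal was 11.1-fold (log2 change -3.48, SE 0.345; edgeR adjusted p = 2.08e-05). The remaining difference from undifferentiated cells had a log2 change of 0.96 (SE 0.478) and did not pass (edgeR adjusted p = 0.158).

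*Wnt11*, another polarity ligand, gave nearly the same picture. Its levels were 0.403, 0.192 and 0.0654 CPM in undifferentiated, 7, 5.71 and 5.49 in differentiated and 0.339, 0.398 and 0.527 in dedifferentiated cells. Differentiated libraries stood apart from both other stages, which overlapped. It rose 26.3-fold (log2 change 4.72, SE 0.451; edgeR adjusted p = 7.04e-06) and fell 13.9-fold (log2 change -3.79, SE 0.409; edgeR adjusted p = 3.64e-05). Without undifferentiated replicate 1 the log2 change under dbcAMP was 5.54.

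*Wnt6*, which lies beside *Wnt10a* on the RefSeq map, measured 1.37, 1.44 and 0.981 CPM in undifferentiated, 24.1, 26.4 and 26.6 in differentiated and 4.15, 8.55 and 8.35 in dedifferentiated cells. No libraries of different stages overlapped. The rise was 19.7-fold (log2 change 4.30, SE 0.287; edgeR adjusted p = 4.73e-07) and the fall 3.64-fold (log2 change -1.86, SE 0.235; edgeR adjusted p = 0.000106). Dedifferentiated cells kept 5.41 times the undifferentiated level (log2 change 2.44, SE 0.30; edgeR adjusted p = 0.000173). Its neighbour *Wnt10a* was too low to pass the count filter. It had 0 counts over the undifferentiated, 23 over the differentiated and 4 over the dedifferentiated libraries. That puts differentiated cells at least 6.83-fold higher than undifferentiated ones, with the latter set at a floor of 3 counts over the stage.

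*Wnt3*, a canonical ligand, measured 0.725, 0.288 and 0.262 CPM in undifferentiated, 1.40, 2.47 and 2.04 in differentiated and 2.63, 1.89 and 1.65 in dedifferentiated cells. The undifferentiated libraries were the 3 lowest, and the other stages overlapped. It rose 4.37-fold under dbcAMP (log2 change 2.13, SE 0.473; edgeR adjusted p = 0.00271) and stood 4.62-fold above undifferentiated cells after withdrawal (log2 change 2.21, SE 0.477; edgeR adjusted p = 0.00575). Without undifferentiated replicate 1 these log2 changes were 2.76 and 2.84. Its change on withdrawal was 0.08 on the log2 scale (SE 0.392; edgeR adjusted p = 0.883).

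*Wnt10b*, a canonical ligand, moved the other way. It measured 6.12, 5.38 and 6.67 CPM in undifferentiated cells, was listed at 0, 0.0772 and 0 in differentiated cells, and returned to 8.39, 1.89 and 1.96 in dedifferentiated cells. Over the differentiated libraries it had 1 count, against 234 in undifferentiated cells, a ratio of 263 (exact 95% counting interval 46.7 to 10400; edgeR adjusted p = 6.79e-05). Dedifferentiated libraries held 144 counts, a ratio of 175 over differentiated cells (interval 30.9 to 6960; edgeR adjusted p = 0.000301). Of those 144 counts 99 came from dedifferentiated replicate 1, and without it the fitted log2 change on withdrawal was 5.88 against 6.96 with it. Leaving out differentiated replicate 2, the library with the 1 count, gave fitted log2 changes of -9.33 under dbcAMP, against -7.57, and 8.71 on withdrawal. The counting intervals cover counting error only. Dedifferentiated replicate 1 was above every undifferentiated library and replicates 2 and 3 were below them, and the difference between these stages was not called (log2 change -0.61, SE 0.513; edgeR adjusted p = 0.408). Without dedifferentiated replicate 1 it was called lower (log2 change -1.73; edgeR adjusted p = 0.00551), where the 14 alternatives gave adjusted p from 0.00551 to 0.766. The span of *Wnt10b* overlaps that of *Tuba1c* in the RefSeq annotation. The spans of *Fzd3*, *Fzd5*, *Lef1*, *Lgr5*, *Lrp5*, *Rnf43*, *Sfrp4*, *Tcf7l2*, *Wif1* and *Wnt11* also overlap other annotated genes. Strand and exons were not compared, and whether any reads were shared was not tested. *Nme8*, which overlaps *Sfrp4*, had no count in any library. *Tuba1c* itself measured 21.9 to 34.2 CPM in undifferentiated, 19.1 to 41.2 in differentiated and 15 to 24.8 in dedifferentiated cells, ranges that overlap.

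*Wnt9a* stayed between 2.14 and 5.08 CPM in all 9 libraries and was called in no comparison (edgeR adjusted p = 0.173, 0.442 and 0.659 for dbcAMP, withdrawal, and dedifferentiated against undifferentiated cells). The other 12 ligands were not tested. *Wnt7b*, *Wnt8a* and *Wnt8b* had no count in any library, and *Wnt10a*, described above, *Wnt7a*, *Wnt4* and *Wnt2b* had low counts. *Wnt4* had 10, 6 and 2 counts, *Wnt2b* had 0, 9 and 0 counts and *Wnt7a* 10, 3 and 22 counts over the libraries of the 3 stages in order. *Wnt1*, *Wnt16*, *Wnt3a*, *Wnt4*, *Wnt5b* and *Wnt9b* stayed at or below 0.483 CPM in every library.

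**Figure D2:**
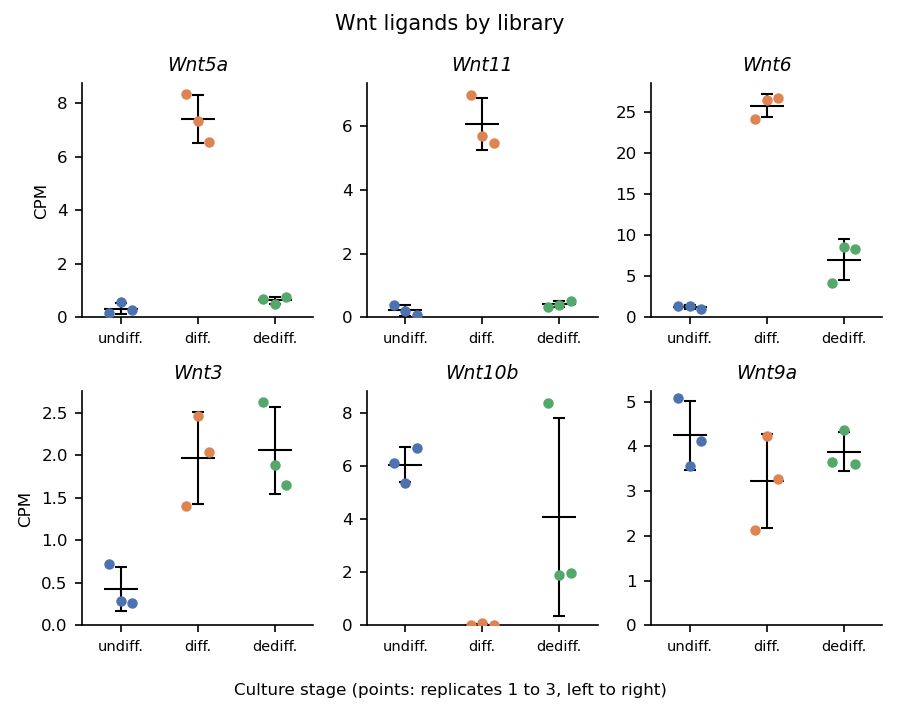
CPM (y axis, from 0, a scale of its own in each panel) of the 6 tested ligands in each library of the 3 culture stages (x axis). Points are replicates and black bars the mean and SD (n = 3). *Wnt5a*, *Wnt11* and *Wnt6* peak in differentiated cells, *Wnt3* stays up after withdrawal, *Wnt10b* is at or near 0 in differentiated cells, and *Wnt9a* overlaps across stages.

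Of the 11 receptors and co-receptors 9 were tested. Under dbcAMP *Fzd3*, *Fzd4* and *Fzd6* rose and *Fzd1* and *Fzd2* fell, and each of these 5 was called in the opposite direction after withdrawal. Both comparisons share the differentiated libraries, and over all genes 59.6% and 46.4% were called in them. The share of all genes with each pattern is given further below. *Fzd8* rose after withdrawal without a called change under dbcAMP. The co-receptors *Lrp5* and *Lrp6* and the receptor *Fzd5* were called in no comparison.

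*Fzd4*, a receptor for Wnts and for norrin, measured 0.725, 0.577 and 1.05 CPM in undifferentiated, 7.66, 3.70 and 3.89 in differentiated and 1.44, 1.19 and 0.451 in dedifferentiated cells. All differentiated libraries were above the rest. It rose 6.06-fold (log2 change 2.60, SE 0.47; edgeR adjusted p = 0.000716) and fell 4.95-fold (log2 change -2.31, SE 0.462; edgeR adjusted p = 0.0022).

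*Fzd3* and *Fzd6*, a pair of Frizzleds known for planar cell polarity, rose less. *Fzd3* measured 40.0, 26.2 and 29.4 CPM, then 60.7, 62.9 and 54.0, then 34.0, 20.3 and 26.0 CPM in the 3 stages in order. It rose 1.77-fold (log2 change 0.83, SE 0.196; edgeR adjusted p = 0.00404) and fell 2.19-fold (log2 change -1.13, SE 0.199; edgeR adjusted p = 0.00101).
For *Fzd6* the levels were 12.2, 7.31 and 8.51, then 21.8, 13.3 and 18.2, then 6.61, 6.96 and 7.15 CPM. It rose 1.82-fold (log2 change 0.86, SE 0.23; edgeR adjusted p = 0.00765) and fell 2.55-fold (log2 change -1.35, SE 0.237; edgeR adjusted p = 0.000964). For both genes every differentiated library was above those of the other stages.

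*Fzd2* went the other way, with 127, 121 and 111 CPM in undifferentiated, 59.4, 54.7 and 70.3 in differentiated and 90.9, 98.1 and 104 in dedifferentiated cells. No stages overlapped. It was 2.04-fold lower under dbcAMP (log2 change -1.03, SE 0.108; edgeR adjusted p = 1.4e-05) and rose 1.60-fold on withdrawal (log2 change 0.68, SE 0.107; edgeR adjusted p = 0.000495). It stayed 1.27-fold below undifferentiated cells (log2 change -0.35, SE 0.106; edgeR adjusted p = 0.0324). That last call was lost when scaled by library size alone (adjusted p = 0.0552) and without undifferentiated replicate 1 or 2 (0.0918 and 0.0665) or dedifferentiated replicate 1, 2 or 3 (0.0713, 0.0612 and 0.0554), and the 15 alternatives ran from 0.00811 to 0.0918.

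*Fzd1* measured 23.5, 46.3 and 45.4 CPM in undifferentiated, 22.8, 22.4 and 25.8 in differentiated and 34.2, 44.0 and 41.8 in dedifferentiated cells. Undifferentiated replicate 1 fell among the differentiated libraries, unlike replicates 2 and 3. The fall was 1.69-fold (log2 change -0.75, SE 0.21; edgeR adjusted p = 0.00986) and the rise 1.70-fold (log2 change 0.77, SE 0.21; edgeR adjusted p = 0.0123).

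*Fzd8* measured 139, 144 and 146 CPM in undifferentiated and 125, 156 and 146 in differentiated cells, which overlapped, and 157, 211 and 198 in dedifferentiated cells, which were higher than both. It rose 1.34-fold on withdrawal (log2 change 0.42, SE 0.111; edgeR adjusted p = 0.0101) and was 1.28-fold above undifferentiated cells (log2 change 0.35, SE 0.111; edgeR adjusted p = 0.0356). The latter call was lost with DESeq2's size factors (adjusted p = 0.0516) and without the 10 most abundant genes (0.0553). It was also lost without undifferentiated replicate 1, 2 or 3 (adjusted p = 0.0671, 0.103 and 0.0856) or dedifferentiated replicate 2 or 3 (0.176 and 0.108), and the 15 alternatives ran from 0.0057 to 0.176.

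*Lrp6* stayed between 99.6 and 134 CPM and *Lrp5* between 48.9 and 93.8 CPM in all libraries. The dbcAMP log2 change was 0.01 for *Lrp6* (SE 0.0956; edgeR adjusted p = 0.924) and 0.16 for *Lrp5* (SE 0.167; edgeR adjusted p = 0.42). For *Lrp5* all dedifferentiated libraries were below the differentiated ones, with a log2 change of -0.38 (SE 0.168) that did not pass (edgeR adjusted p = 0.088). *Fzd5* ranged from 0.696 to 2.58 CPM. Of the untested receptors *Fzd9* had 3, 32 and 1 counts over the libraries of the 3 stages, a ratio of 9.51 for differentiated over undifferentiated cells (exact 95% counting interval 2.97 to 48.5), and *Fzd10* had 5, 0 and 2.

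**Figure D3:**
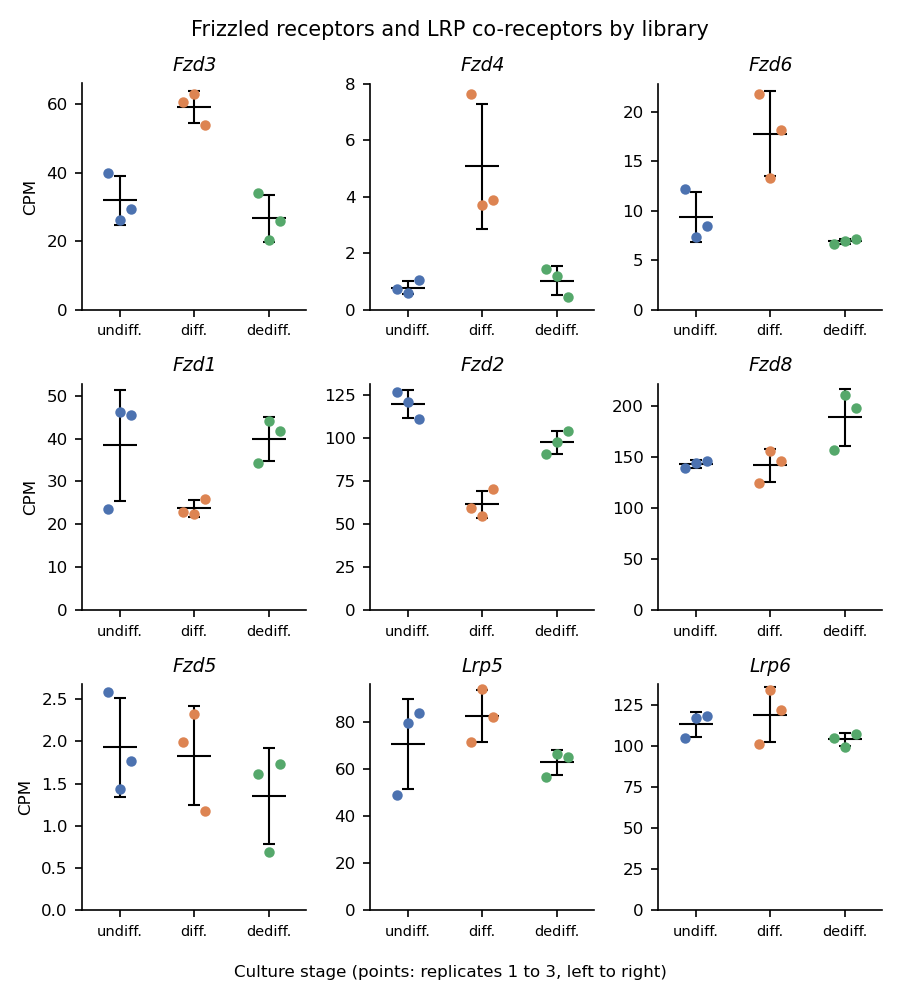
CPM (y axis, from 0, its own scale in each panel) of the 9 tested receptors and co-receptors in each library of the 3 culture stages (x axis), with points for replicates and black bars for mean and SD (n = 3). *Fzd3*, *Fzd4* and *Fzd6* peak and *Fzd1* and *Fzd2* dip in differentiated cells, while *Fzd5*, *Lrp5* and *Lrp6* show no called change.

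The R-spondin branch held the largest rise under dbcAMP among the 27 tested members. *Lgr5*, an R-spondin receptor widely used as a stem cell marker, measured 0.242, 0.288 and 0.262 CPM in undifferentiated, 27.4, 41.3 and 65.4 in differentiated and 0.678, 1.19 and 1.35 in dedifferentiated cells. The 3 stages did not overlap. It rose 158-fold (log2 change 7.30, SE 0.434; edgeR adjusted p = 2.11e-07) from 10 counts over the undifferentiated libraries, and fell 40.7-fold on withdrawal (log2 change -5.35, SE 0.358; edgeR adjusted p = 1.35e-06). It was then 3.87-fold above undifferentiated cells (log2 change 1.95, SE 0.65; edgeR adjusted p = 0.0441). That call was lost without undifferentiated replicate 1, 2 or 3 (adjusted p = 0.118, 0.0978 and 0.115) or dedifferentiated replicate 2 or 3 (0.104 and 0.135), and the 13 alternatives ran from 0.00329 to 0.135.

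*Lgr4*, the related receptor, measured 266, 308 and 263 CPM in undifferentiated, 309, 356 and 315 in differentiated and 227, 183 and 215 in dedifferentiated cells. The stages did not overlap, yet the dbcAMP difference did not pass (log2 change 0.17, SE 0.103; edgeR adjusted p = 0.19). Dedifferentiated cells were 1.56-fold below differentiated cells (log2 change -0.64, SE 0.104; edgeR adjusted p = 0.000617) and 1.39-fold below undifferentiated cells (log2 change -0.47, SE 0.104; edgeR adjusted p = 0.00642).

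The only R-spondin that passed the count filter moved against *Lgr5*. *Rspo1*, the R-spondin with enough counts to test, measured 0.967, 1.44 and 1.18 CPM in undifferentiated, 0.0737, 0 and 0.247 in differentiated and 0.593, 0.398 and 1.05 in dedifferentiated cells. Differentiated libraries were the 3 lowest, and the other stages overlapped. It was 9.97-fold lower under dbcAMP (log2 change -3.32, SE 0.698; edgeR adjusted p = 0.00194) and rose 5.70-fold on withdrawal (log2 change 2.51, SE 0.75; edgeR adjusted p = 0.019), from 5 counts in differentiated cells. Without differentiated replicate 3 the log2 changes were -4.7 and 3.89. The rise lost its call without differentiated replicate 1 or 2 (adjusted p = 0.0552 and 0.0501) or dedifferentiated replicate 3 (0.0921), and the 13 alternatives ran from 0.0118 to 0.0921. *Rspo2* had at most 0.403 CPM in any library and *Rspo3* no count. *Rnf43*, the ligase that removes Frizzled, ranged from 0.645 to 1.73 CPM and was called in no comparison (dbcAMP log2 change 0.04, SE 0.438; edgeR adjusted p = 0.945).

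Among the secreted antagonists, *Sfrp1* fell and *Dkk3* rose under dbcAMP. *Sfrp1*, a decoy that binds Wnt proteins, measured 3017, 2660.3 and 2613 CPM in undifferentiated, 739.8, 763 and 868 in differentiated and 1777, 2059.5 and 2027 in dedifferentiated cells. No stages overlapped. It was 3.66-fold lower under dbcAMP (log2 change -1.87, SE 0.111; edgeR adjusted p = 2.04e-07) and rose 2.50-fold on withdrawal (log2 change 1.32, SE 0.109; edgeR adjusted p = 5.91e-06). It stayed 1.47-fold below undifferentiated cells (log2 change -0.55, SE 0.107; edgeR adjusted p = 0.00317).

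*Dkk3*, a divergent member of a family that otherwise blocks LRP co-receptors, measured 5.16, 6.63 and 9.16 CPM in undifferentiated, 96.4, 124 and 91.4 in differentiated and 9.92, 7.16 and 8.20 in dedifferentiated cells. Differentiated libraries lay far above the others, which overlapped. It rose 14.1-fold (log2 change 3.82, SE 0.197; edgeR adjusted p = 7.53e-08) and fell 12.2-fold (log2 change -3.60, SE 0.195; edgeR adjusted p = 3.29e-07), and the remaining log2 change of 0.22 did not pass (SE 0.21; edgeR adjusted p = 0.479).

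*Sfrp4* ranged from 1.62 to 4.24 CPM and *Wif1*, another decoy for Wnt proteins, from 0.221 to 1.37 CPM, and neither was called in any comparison. The dbcAMP log2 change was -0.47 for *Sfrp4* (SE 0.303; edgeR adjusted p = 0.199) and -1.0 for *Wif1* (SE 0.568; edgeR adjusted p = 0.153). *Dkk1*, *Dkk2*, *Dkk4*, *Sfrp2* and *Sfrp5* were not tested and stayed at or below 0.865 CPM in every library.

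All 4 cytoplasmic and nuclear members were called under dbcAMP, where 59.6% of all genes were called, and they did not move one way. *Axin2* rose and *Lef1*, *Tcf7l2* and *Ctnnb1* fell. *Axin2*, whose promoter with 2 TCF/LEF cores is printed above, measured 16.9, 12.8 and 14.0 CPM in undifferentiated, 37.9, 19.0 and 25.1 in differentiated and 17.4, 17.6 and 17.8 in dedifferentiated cells. Differentiated libraries were the highest but spread widely, with replicate 2 close to the dedifferentiated ones. It rose 1.80-fold (log2 change 0.85, SE 0.229; edgeR adjusted p = 0.00839) and fell 1.55-fold (log2 change -0.63, SE 0.228; edgeR adjusted p = 0.0427). The fall lost its call with the sequencing project as a covariate (adjusted p = 0.0541) and when the 6 libraries of the 2 stages were fitted alone (0.0529). It was also lost without differentiated replicate 1 or 3 (adjusted p = 0.177 and 0.059) or dedifferentiated replicate 1, 2 or 3 (0.0956, 0.0968 and 0.101), and the 15 alternatives ran from 0.00788 to 0.177. Without differentiated replicate 1 its log2 change was -0.31.

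*Lef1*, a DNA-binding partner of β-catenin, measured 3.47, 9.33 and 10.9 CPM in undifferentiated, 2.95, 1.93 and 2.96 in differentiated and 4.58, 8.55 and 6.09 in dedifferentiated cells. Differentiated libraries were the 3 lowest, with undifferentiated replicate 1 close above them. It was 3.12-fold lower under dbcAMP (log2 change -1.64, SE 0.40; edgeR adjusted p = 0.00472) and rose 2.45-fold on withdrawal (log2 change 1.29, SE 0.405; edgeR adjusted p = 0.0236). The rise lost its call without differentiated replicate 2 (adjusted p = 0.0793) or dedifferentiated replicate 2 (0.0897), and the 15 alternatives ran from 0.00501 to 0.0897.

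*Ctnnb1*, the gene of β-catenin, changed little in transcript level, with 488, 609.7 and 650.2 CPM in undifferentiated, 446, 506 and 518 in differentiated and 572, 599.7 and 616 in dedifferentiated cells. Undifferentiated replicate 1 lay within the differentiated range. It was 1.24-fold lower under dbcAMP (log2 change -0.31, SE 0.0992; edgeR adjusted p = 0.0195) and 1.23-fold higher on withdrawal (log2 change 0.30, SE 0.0992; edgeR adjusted p = 0.0312). Scaling by library size alone ended both calls (adjusted p = 0.0711 and 0.057). The first was also lost without undifferentiated replicate 3 (0.0819) or differentiated replicate 1 (0.0728), and the 15 alternatives ran from 0.00203 to 0.0819. The other was lost without differentiated replicate 1 or 2 (adjusted p = 0.104 and 0.0589) or dedifferentiated replicate 2 or 3 (0.0751 and 0.0891), with a range of 0.0109 to 0.104.

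*Tcf7l2*, another partner of β-catenin, measured 22.2, 31.8 and 27.7 CPM in undifferentiated, 17.2, 23.8 and 20.1 in differentiated and 22.6, 17.2 and 20.5 in dedifferentiated cells, and all stages overlapped. It was 1.40-fold below undifferentiated cells both under dbcAMP (log2 change -0.48, SE 0.162; edgeR adjusted p = 0.0247) and after withdrawal (log2 change -0.48, SE 0.163; edgeR adjusted p = 0.0469). Scaling by library size alone ended both calls (adjusted p = 0.0507 and 0.0789). The first was also lost without undifferentiated replicate 2 or 3 (0.0723 and 0.0546) or differentiated replicate 1 or 3 (0.0885 and 0.0683), and the 15 alternatives ran from 0.00891 to 0.0885. The other was lost with the replicate block (adjusted p = 0.0563), with the sequencing project as a covariate (0.0634) and with the 6 libraries alone (0.0538). It was lost, too, without undifferentiated replicate 2 or 3 (adjusted p = 0.132 and 0.0942) or dedifferentiated replicate 2 or 3 (0.13 and 0.11), with a range of 0.0183 to 0.132.

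**Figure D4:**
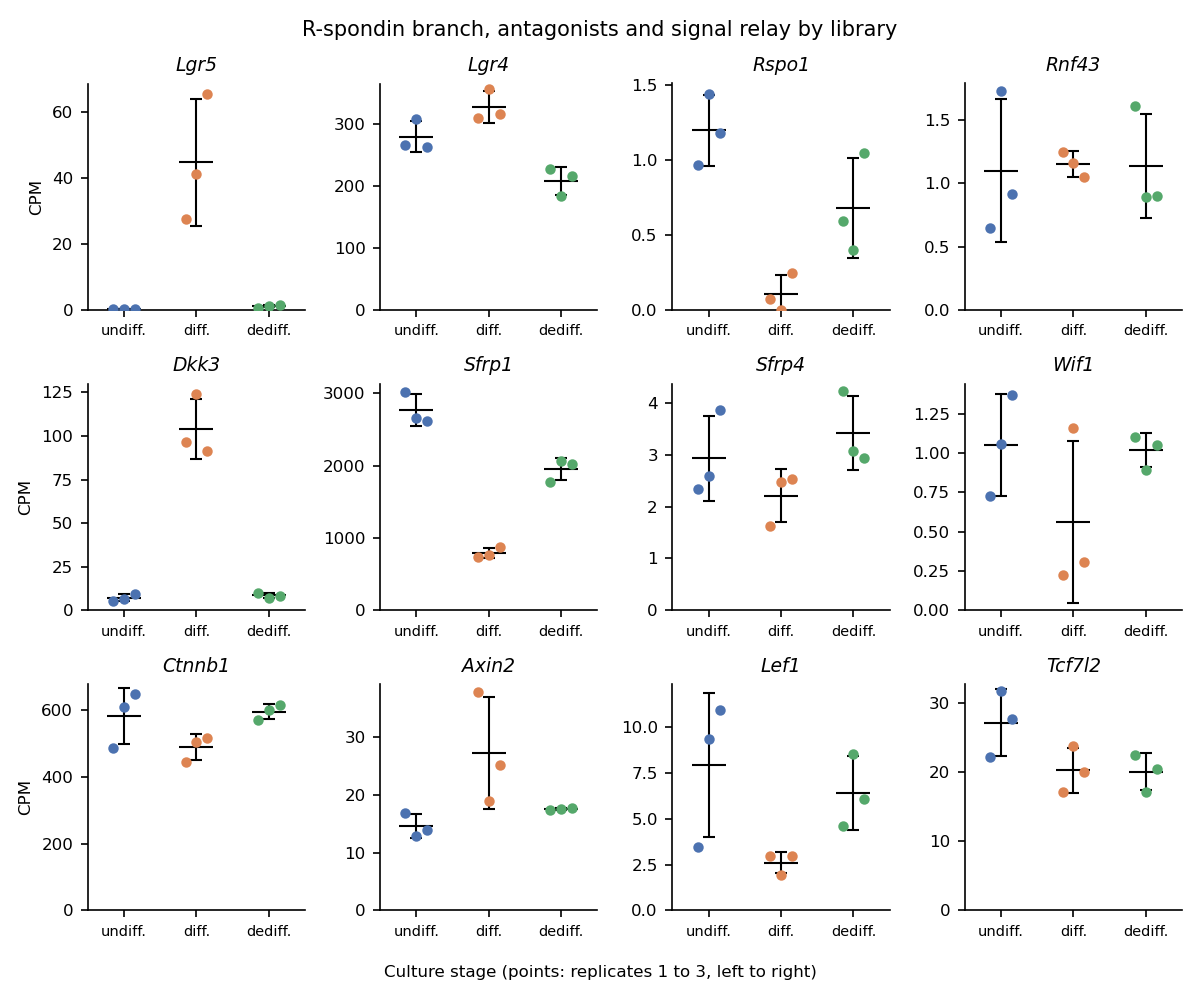
CPM (y axis, from 0, its own scale in each panel) of the tested R-spondin branch genes, secreted antagonists and cytoplasmic or nuclear members in each library of the 3 culture stages (x axis), with points for replicates and black bars for mean and SD (n = 3). *Lgr5* and *Dkk3* are high in differentiated cells alone, *Sfrp1* and *Rspo1* dip there, and *Axin2* and *Lef1* move in opposite directions.

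By pattern over the 3 comparisons, 7 members rose under dbcAMP, fell on withdrawal and were not called different from undifferentiated cells at the end (*Axin2*, *Dkk3*, *Fzd3*, *Fzd4*, *Fzd6*, *Wnt5a* and *Wnt11*). That is 25.9% of the 27, against 12.6% of all genes tested. *Wnt5a* and *Wnt11* had 12 and 8 counts over the undifferentiated and 23 and 15 over the dedifferentiated libraries. They passed the count filter through the differentiated libraries, which nearly fixes a rise and a fall in advance. The share is therefore given as description and not as a result about the members. The mirror pattern held 5, or 18.5% against 12.2% (*Ctnnb1*, *Fzd1*, *Lef1*, *Rspo1* and *Wnt10b*). *Wnt6* and *Lgr5* rose, fell and stayed called above the start, as did 5.75% of all genes, and *Fzd2* and *Sfrp1* fell, rose and stayed called below it, as did 5.91%. *Wnt3* rose and *Tcf7l2* fell without a called change on withdrawal, and both stayed called at the end, patterns of 6.45% and 4.19% of all genes. *Fzd8* and *Lgr4* were called in both comparisons of dedifferentiated cells and not under dbcAMP, with *Fzd8* higher (1.65% of all genes) and *Lgr4* lower (1.57%). The other 7 tested members, or 25.9%, were called in no comparison, against 30.9% of all genes.

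Other genes of the pathway were taken from a list of 57, of which 49 were in the table and 44 were tested. Under dbcAMP 15 rose and 17 fell, on withdrawal 11 rose and 12 fell, and against undifferentiated cells 4 were higher and 10 lower after withdrawal, or 6 and 9 when scaled by library size alone. These are 72.7%, 52.3% and 31.8% of those tested, against the 59.6%, 46.4% and 29.4% of all genes given above, and the median log2 changes were 0.14, -0.02 and -0.13. The changes above 2-fold included feedback inhibitors, ligand export, the destruction complex and polarity genes, of which the 12 with the smallest p are given.

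*Nkd1*, a feedback inhibitor of Dishevelled that is often induced by Wnt signalling, had the largest change of the 12. It measured 2.74, 2.12 and 1.18 CPM in undifferentiated, 639, 916 and 617 in differentiated and 13.6, 9.64 and 7.75 in dedifferentiated cells, with no overlap between stages. It rose 352-fold (log2 change 8.46, SE 0.321; edgeR adjusted p = 9.84e-09) and fell 69.5-fold on withdrawal (log2 change -6.12, SE 0.272; edgeR adjusted p = 9.62e-08). It stayed 5.06-fold above undifferentiated cells (log2 change 2.34, SE 0.334; edgeR adjusted p = 0.000462).
Its relative *Nkd2* did the opposite, with 781, 955 and 980 CPM in undifferentiated, 149, 167 and 184 in differentiated and 433, 764 and 768 in dedifferentiated cells. It was 5.67-fold lower under dbcAMP (log2 change -2.50, SE 0.197; edgeR adjusted p = 1.65e-06) and rose 3.96-fold on withdrawal (log2 change 1.99, SE 0.194; edgeR adjusted p = 1.83e-05). Its difference between dedifferentiated and undifferentiated cells was not called (log2 change -0.52; edgeR adjusted p = 0.0611). It was called lower there with the replicate block (0.00989), with DESeq2's size factors (0.0486), by DESeq2's Wald test (0.0144), without a filter (0.0393) and without dedifferentiated replicate 2 (0.0458), and the 15 alternatives ran from 0.00989 to 0.142.

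*Wls*, the carrier that brings Wnt proteins to the cell surface, measured 92.8, 96.5 and 101 CPM in undifferentiated, 18.1, 21.1 and 22.1 in differentiated and 63.2, 59.2 and 64.5 in dedifferentiated cells. The stages did not overlap, and the fall under dbcAMP, in the same libraries where 4 ligands rose, was 4.94-fold (log2 change -2.30, SE 0.0869; edgeR adjusted p = 9.55e-09). On withdrawal *Wls* rose 3.07-fold (edgeR adjusted p = 3.05e-07) and stayed 1.61-fold below undifferentiated cells (edgeR adjusted p = 0.000142). *Notum*, a secreted enzyme that strips the lipid from Wnt proteins, rose from 0.242, 0.0961 and 0 CPM to 3.83, 3.01 and 2.47 CPM under dbcAMP (log2 change 4.69, SE 0.619; edgeR adjusted p = 7.87e-05) and fell to 0.339, 0.298 and 0.527 CPM on withdrawal (log2 change -2.93, SE 0.506; edgeR adjusted p = 0.000882). The *Notum* rise starts from 4 counts over the undifferentiated libraries, and its log2 change was 5.95 without undifferentiated replicate 1 and 4 without replicate 3. *Sostdc1*, a secreted antagonist of Wnt and BMP signals, rose 45.7-fold under dbcAMP, from 4.03, 33.9 and 35.4 to 795, 1442 and 1244 CPM (edgeR adjusted p = 1.9e-05), and undifferentiated replicate 1 was the lowest library by far. On withdrawal *Sostdc1* fell 8.06-fold, to 101, 159 and 168 CPM (edgeR adjusted p = 0.000999). It stayed 5.67-fold above undifferentiated cells (edgeR adjusted p = 0.00567).

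Of the destruction complex and its regulators, *Apc*, the scaffold that presents β-catenin for degradation, fell from 616, 435 and 504 CPM to 209, 195 and 179.6 CPM under dbcAMP and stood at 309, 248 and 251 CPM after withdrawal. It was 2.78-fold lower under dbcAMP (log2 change -1.48, SE 0.146; edgeR adjusted p = 9.25e-06) and still 1.99-fold below undifferentiated cells at the end (log2 change -1.0, SE 0.145; edgeR adjusted p = 0.000513). *Amer1*, which binds APC, and *Tnks*, a tankyrase that marks Axin for degradation, were lower by log2 changes of -1.71 and -1.32 under dbcAMP (edgeR adjusted p = 3.19e-06 and 2.7e-05) and of -1.23 and -0.63 at the end (edgeR adjusted p = 0.000129 and 0.00935). On withdrawal *Apc*, *Amer1* and *Tnks* rose, with log2 changes of 0.48, 0.47 and 0.69 (adjusted p = 0.0193, 0.025 and 0.00369 by edgeR). The *Apc* rise lost its call without differentiated replicate 2 or 3 (adjusted p = 0.0515 and 0.0725) or dedifferentiated replicate 1 (0.0571), over a range of 0.00184 to 0.0725. For *Amer1* it was lost without differentiated replicate 3 (0.0894) or dedifferentiated replicate 2 or 3 (0.0559 and 0.0886), over a range of 0.0217 to 0.0894.

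*Tle4*, a corepressor that TCF and LEF proteins recruit, was lower by a log2 change of -1.82 under dbcAMP (SE 0.168; edgeR adjusted p = 5.48e-06) and rose by 1.30 on withdrawal (SE 0.168; edgeR adjusted p = 0.000124). It stayed below undifferentiated cells at the end (log2 change -0.52; edgeR adjusted p = 0.0342), a call lost in 6 of 15 alternatives. The polarity genes split. *Vangl1* and *Ptk7* were lower by log2 changes of -2.31 and -1.53 under dbcAMP (edgeR adjusted p = 7.58e-08 and 5.75e-06), with 12.0 to 12.7 and 20.5 to 30.9 CPM in differentiated against 57.6 to 60.8 and 70.8 to 81.6 CPM in undifferentiated cells. *Celsr3*, an atypical cadherin of the polarity pathway, rose 38.7-fold (log2 change 5.28, SE 0.416; edgeR adjusted p = 1.64e-06), from 0.916 to 1.93 CPM up to 48.0 to 58.2 CPM. It fell 17-fold on withdrawal (edgeR adjusted p = 1.16e-05) and was then not called different from undifferentiated cells (edgeR adjusted p = 0.0968).

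**Figure D5:**
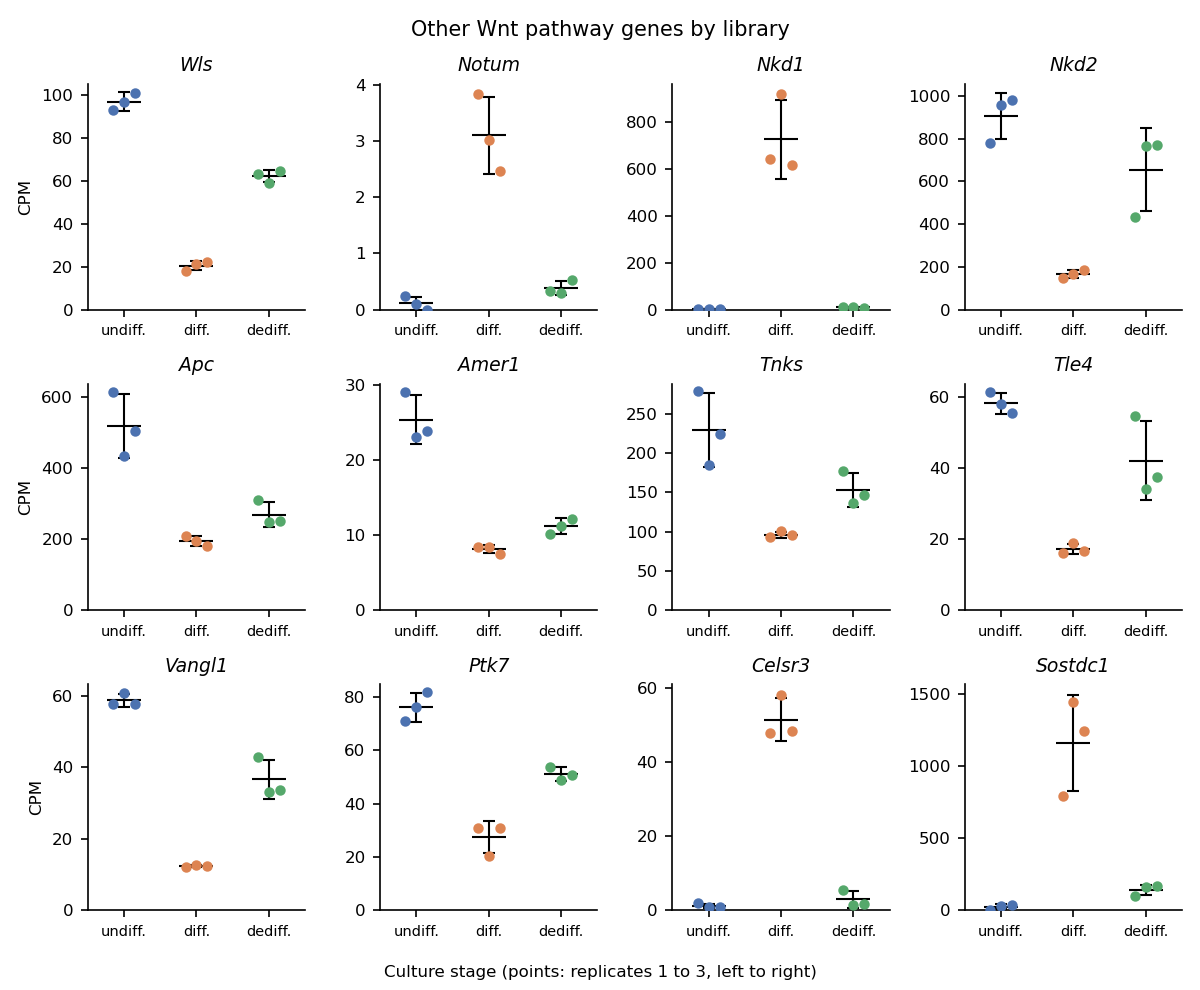
CPM (y axis, from 0, its own scale in each panel) of the 12 other pathway genes in each library of the 3 culture stages (x axis), with points for replicates and black bars for mean and SD (n = 3). *Notum*, *Nkd1*, *Celsr3* and *Sostdc1* are high in differentiated cells, where the other 8 are at their lowest.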

How the data were processed

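Only the 9 cell mRNA libraries were used. The deposited table gives, for each gene, the authors' estimated counts. Its name and the submitters' processing notes give Salmon as the tool, and the genome build and annotation are not given in the sources used here. Of the values 1.15% had a fraction, and all were rounded to whole numbers for testing. Levels are CPM of the column totals. Columns were matched to samples by library code and stage, since the replicate suffix of the column names differs from the titles. In R 4.3.3, edgeR 4.0.16 kept genes by filterByExpr (minimum count 10) and scaled by TMM. All 9 libraries were fitted without covariates in a quasi-likelihood model. The code was run on simulated data in which few genes changed and same-numbered libraries shared no effect. These data differ in both respects, so that run does not check the model for them. Adjustment was by Benjamini-Hochberg over 10372 genes. The standard error (SE) is approximate: the absolute log2 change divided by the square root of the test's F statistic. Alternatives used DESeq2 1.42.0, other scalings, filters and covariates, and left out single libraries. The members and lists were chosen with earlier results of these data known. Members called in any comparison with a mean of 1 CPM or more at any stage are given by library, and other pathway genes called with an absolute log2 change above 1, at most 12 by smallest p. RefSeq entries were matched by symbol.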

Additional observations from a re-analysis of the deposited data

How the results depend on the processing

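The count of members called under dbcAMP fell from 18 to 11 when at least 10 counts were required in every library, which removes genes at or near 0 at 1 stage. It was 16 to 20 under the other 8 full-library alternatives and 16 to 19 when single libraries were left out. For withdrawal it was 12 with that filter, 17 to 20 under the other 8 and 15 to 17 without single libraries. For dedifferentiated against undifferentiated cells it was 6 with that filter, 6 to 8 and 4 to 8. Library size alone moved the median log2 change of all genes under dbcAMP from 0.05 to 0.11. For the other pathway genes leaving out single libraries gave 25 to 31, 18 to 25 and 12 to 16 calls in the 3 comparisons. The replicate number as a block gave 18, 19 and 7 called members and 33, 25 and 18 other pathway genes. Whether libraries of 1 number came from 1 culture is not stated in the labels. Deviations of same-numbered libraries correlated at 0.028 to 0.304, not all above 0.1, and 8 of 9 libraries correlated best with their own number. Of the 96 named gene results 81 kept their side of the threshold in every alternative that could be fitted. No called change reversed. Changes near 0 that were not called did: *Fzd1* in dedifferentiated against undifferentiated cells (log2 change -0.02 with DESeq2's size factors, with its Wald test and without the 10 most abundant genes, 0 without a filter, and -0.23, -0.09 and -0.01 without undifferentiated replicate 1 or dedifferentiated replicate 2 or 3). *Ctnnb1* there gave 0.03 with library size alone and 0.05 without undifferentiated replicate 3, and *Fzd4* -0.08 without dedifferentiated replicate 1. Over all single libraries left out the log2 change ran from -0.23 to 0.15, -0.11 to 0.05 and -0.08 to 0.68 for these 3 genes. On withdrawal *Tcf7l2* gave 0.01 with the block, without a filter, without the 10 most abundant genes and with the 6 libraries alone, and 0.12 and 0.10 without differentiated or dedifferentiated replicate 2. *Wnt3* gave -0.10 and -0.13 without differentiated or dedifferentiated replicate 1, in a range of -0.13 to 0.26. Under dbcAMP *Fzd8* gave 0.01 without differentiated replicate 1. Members at a few counts, such as *Wnt10a* and *Fzd9*, did not pass the filter of the main fit. Without a filter 20 members were called under dbcAMP, of which 18 were also called in the main fit. On withdrawal it was likewise 20, of which 18 were also called in the main fit.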
